A study of Mus musculus with 9 samples.

Results

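Hyaluronan and its main proteoglycan partner versican were followed through 8 genes in hepatic stellate cells and in activated fibroblasts of fibrotic mouse livers. The genes were chosen by name, though with earlier results of these data known, and are 8 of the 24453 genes measured. They are the hyaluronan synthases Has1, Has2 and Has3, the hyaluronidases Hyal1 and Hyal2, the hyaluronan receptor Cd44, the versican gene Vcan, and Tnfaip6, whose secreted product binds hyaluronan. RNA sequencing covered 3 libraries in each of 3 groups, all from livers of C57BL/6J mice, and the cells of 3 to 5 mice went into each library. NASH-fib came from male MC/COL mice, which lack the melanocortin 4 receptor (MC4R-KO) and carry the Col1a2-GFP transgene, were 8 weeks old when Western diet (WD) began and received it for 20 weeks. CCl4-fib came from Col1a2-GFP Tg mice with an intact receptor that were injected with carbon tetrachloride (CCl4) 2 times a week for 8 weeks. Both kinds of fibroblast were sorted by FACS as viable CD45- GFP+ cells, so they are cells in which the collagen promoter of the transgene was active. HSCs were separated from healthy wild-type livers on a density gradient and were not sorted. Activation, transgene, mode of isolation and the diet or injections of the mice therefore cannot be told apart in comparisons with HSCs. For NASH-fib this also holds for the loss of the melanocortin 4 receptor. NASH-fib and CCl4-fib differ in genotype, diet and injury at once.

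Hyaluronan is a long unsulfated sugar chain that synthases in the plasma membrane assemble from UDP-sugars and extrude directly into the matrix. Hyaluronidases shorten it, CD44 anchors it at the cell surface, and versican, a large chondroitin sulfate proteoglycan, binds to it and holds water in the loosened matrix of injured tissue. The product of Tnfaip6 moves the heavy chains of the inter-alpha-trypsin inhibitor family, which are made in hepatocytes, onto hyaluronan and thereby crosslinks it. In the liver, stellate cells are regarded as a main source of hyaluronan and sinusoidal endothelial cells as the site where it is taken up and broken down.

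The values given here are library-scaled reads, that is, reads on the exons of a gene times a factor for its library that brings every library to the same total. The reads behind them numbered 3071070 to 3825522 in HSC, 4687349 to 5634273 in CCl4-fib and 3289758 to 5021156 in NASH-fib libraries, and 3 reads corresponded to a value between 2.38 and 4.37. Differences between groups were tested by limma on log2(value + 1), a scale that shrinks the differences of genes with few reads, and a gene was called when its log2 fold change was at least 1 in size and its adjusted p (Benjamini-Hochberg, over 13651 genes tested) was under 0.05. Of the 8 genes, 7 passed the filter on low reads, and Has3 did not. The knocked-out gene Mc4r had 0 reads in all HSC and CCl4-fib libraries while the NASH-fib replicates 1, 2 and 3 held 4, 13 and 0 reads, so it could not serve as a check of the labels. With 3 libraries a side, no exact permutation test reaches a two-sided p under 0.1.

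Summed markers of stellate cells and of activated fibroblasts followed the labels, though not every marker gene did. The 8 markers of quiescent stellate cells summed to 45486 to 57785 in HSC, 6282 to 18794 in CCl4-fib and 18033 to 31953 in NASH-fib libraries, and the 8 markers of activated fibroblasts to 6764 to 12067, 50998 to 57347 and 29058 to 33282. Markers of other cells moved with the groups too. The 5 measured of 6 mesothelial markers summed to 154 to 574 in HSC, 9989 to 14579 in CCl4-fib and 5375 to 17927 in NASH-fib. All 5 were called higher than in HSCs in both fibroblast groups. Of all tested genes, 16.2% were called higher than in HSCs in CCl4-fib and 8.23% in NASH-fib. Sums of the 6 portal fibroblast markers were 134 to 173, 8112 to 9156 and 2058 to 8710 in the same order, those of the 5 smooth muscle markers 99 to 172, 2694 to 12957 and 4697 to 18291 with Casq2 at 0 in HSCs, and those of the 5 cholangiocyte markers 30.4 to 69.9, 1374 to 3226 and 875 to 1124. The 8 endothelial markers ran the other way, from 8385 to 22537 in HSC to 272 to 325 in CCl4-fib and 1278 to 4910 in NASH-fib, as did the 9 macrophage markers (2578 to 9811, 232 to 443 and 680 to 2164). The 9 hepatocyte markers summed to 18457 to 32820 in HSC, 1525 to 2011 in CCl4-fib and 5363 to 23760 in NASH-fib. NASH-fib overlapped HSC and 0 of the 9 were called against it by limma, where 12.5% of all tested genes were called. In CCl4-fib 8 of 9 were lower than in HSC, beside 11.7% of all tested genes. The 6 neutrophil markers summed to 47.8 to 1034, 5.55 to 41.0 and 591 to 5997, with Ly6g at 0 in CCl4-fib. The 6 lymphocyte markers summed to 21.1 to 51.4, 4.25 to 11.5 and 49.9 to 220, with Cd3e, Cd3d and Nkg7 at 0 in CCl4-fib, and the 5 proliferation markers to 221 to 230, 391 to 671 and 188 to 344. The part of these other cells in the results that follow was not tested, and in bulk libraries fewer cells of a type and less RNA per cell cannot be told apart.

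**Figure D1:**
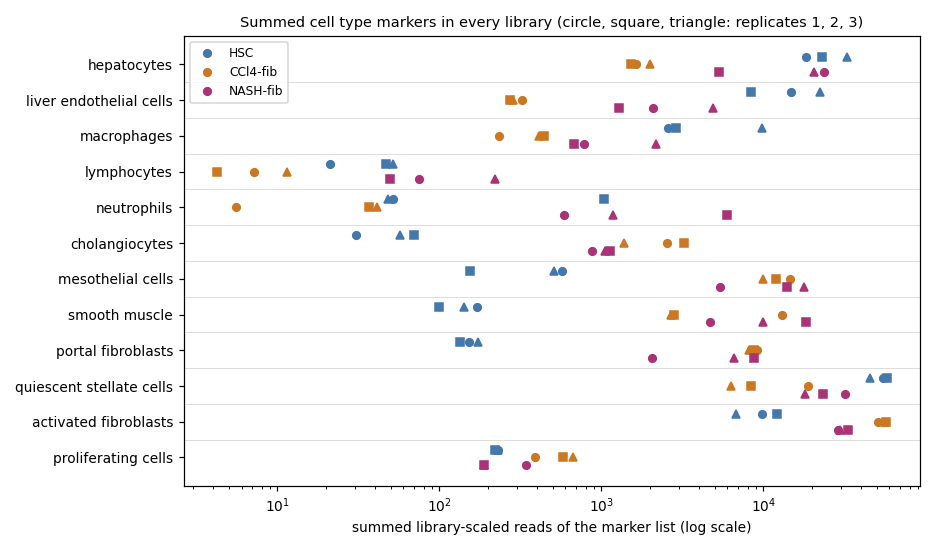
Summed library-scaled reads of each cell type marker list (x axis, log scale) in the 9 libraries, with blue for HSC, orange for CCl4-fib and purple for NASH-fib and symbols for replicates 1 to 3. Mesothelial sums lie at 154 to 574 in HSC and at 5375 or more in all fibroblast libraries, and endothelial sums at 8385 or more in HSC and 4910 or less in the fibroblast libraries.

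The question put to the 8 genes was which of them differ between HSCs and activated fibroblasts, and which between the 2 models of fibrosis. In NASH-fib, Has1, Has2, Vcan and Tnfaip6 were higher than in HSCs, which is 4 of the 7 tested genes, where 8.23% of all tested genes were called higher and 4.3% lower (12.5% in either direction). In CCl4-fib, the same 4 genes and also Hyal2 and Cd44 were higher than in HSCs, which is 6 of 7, against 16.2% of all tested genes called higher and 11.7% lower (27.8% in either direction). Both comparisons use the same 3 HSC libraries and are not independent of each other. Between NASH-fib and CCl4-fib, Hyal2 alone of the 7 was called, lower in NASH-fib, where 5.66% of all tested genes were called lower and 4.97% higher (10.6% in either direction). The median log2 fold change of the 7 genes was 3.87 for NASH-fib against HSC, 3.33 for CCl4-fib against HSC and -0.20 for NASH-fib against CCl4-fib, and that of all tested genes was -0.02, 0.18 and -0.11. After TMM scaling the median of all genes between the fibroblast groups was 0.06, and their calls, 678 higher and 773 lower as deposited, became 773 higher and 625 lower, while Hyal2 stayed called as lower.

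**Figure D2:**
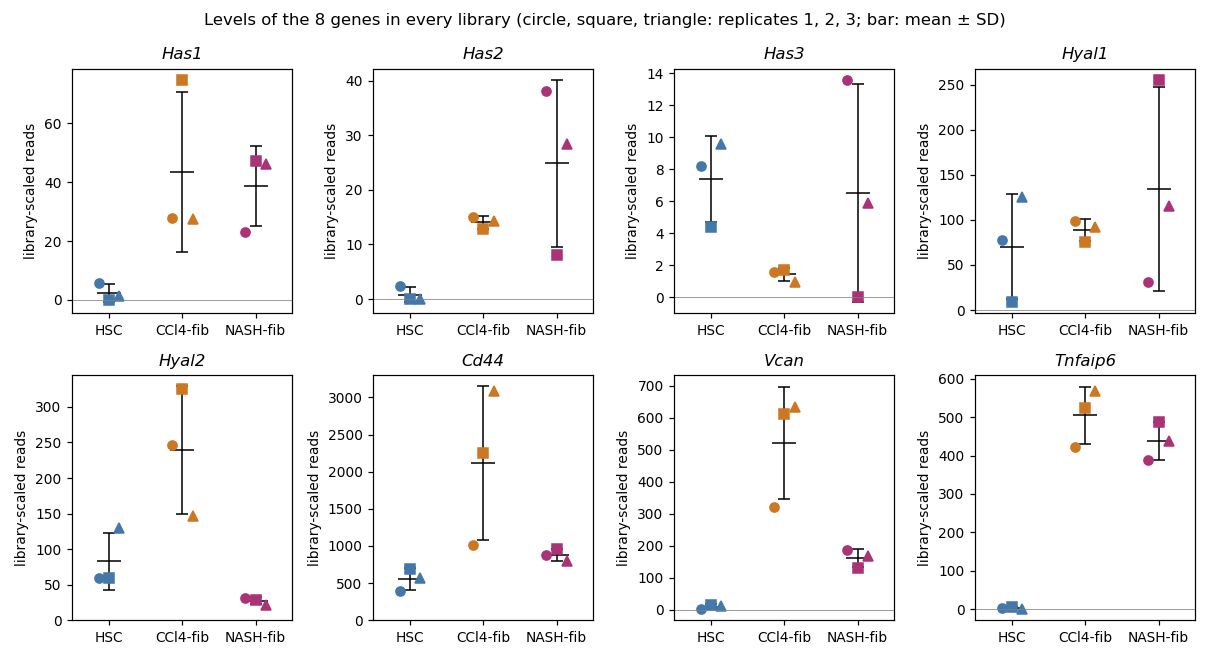
Library-scaled reads (y axis, linear, a separate range in each panel) of the 8 genes in HSC, CCl4-fib and NASH-fib, with 1 symbol per library and a black bar for the mean ± SD (n = 3). Has1, Has2, Vcan and Tnfaip6 sit close to 0 in HSC and higher in all 6 fibroblast libraries, whereas Hyal2 is highest in CCl4-fib and lowest in NASH-fib.

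Without NASH-fib replicate 1, the library with the lowest mesothelial sum of its group, the counts of called genes were again 4, 6 and 1 in the 3 comparisons. With the date written in the library labels as a term in the fit, they were 4, 4 and 1. That date, whose meaning the labels do not give, covers all 3 groups on 1 day only, with 1 library each. Within-date differences given for single genes compare 1 library with 1, or 2 NASH-fib libraries with 1 of CCl4-fib, and carry no test.

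**Figure D3:**
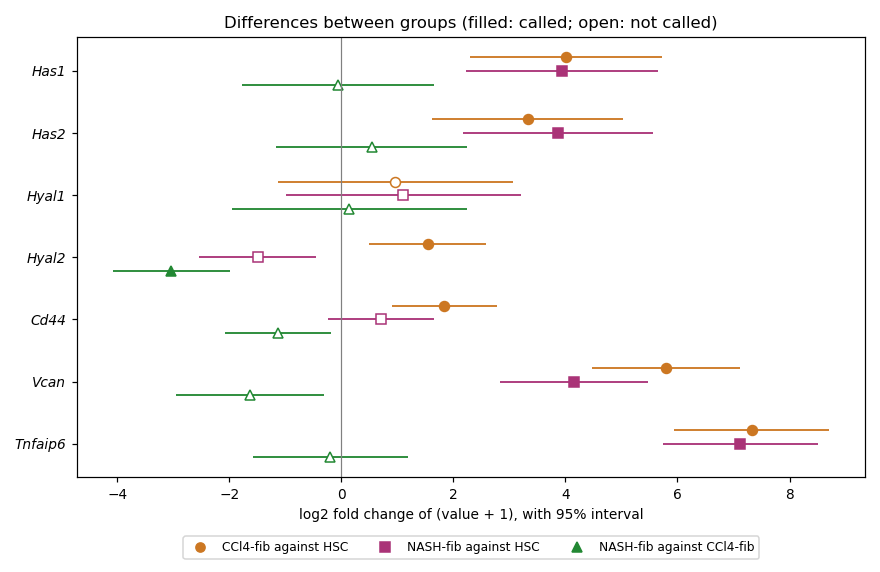
Log2 fold changes (x axis) of the 7 tested genes in the 3 comparisons, each with its 95% interval from limma, filled where the gene was called. The intervals of Has1, Has2, Vcan and Tnfaip6 lie above 0 in both comparisons with HSC, and Hyal2 falls on both sides of 0 against HSC, at 1.54 in CCl4-fib and -1.49 in NASH-fib.

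Among the synthases, Has1 and Has2 were nearly silent in HSCs and present in both kinds of fibroblast. Has1 (NM_008215, minus strand of chromosome 17, 17843326 to 17855188 in mm10) encodes the synthase with the highest demand for UDP-sugars. Its values were 5.84, 0 and 1.2 in HSC replicates 1, 2 and 3, 27.8, 74.8 and 27.7 in CCl4-fib, whereas NASH-fib had 23.1, 47.2 and 46.2. All 6 fibroblast libraries lay above all HSC libraries, and the fibroblast groups overlapped each other. Of all tested genes, 12.7% had every NASH-fib library above every HSC library, and 27.8% every CCl4-fib library. The log2 fold change against HSC was 4.01 (SE 0.77, limma adjusted p = 0.00348) in CCl4-fib and 3.94 (SE 0.77, limma adjusted p = 0.0065) in NASH-fib, and between NASH-fib and CCl4-fib it was -0.06 with a 95% interval from -1.78 to 1.65. HSC values rest on 6 reads in all, and without HSC replicate 1 the log2 fold change was 4.74 in CCl4-fib and 4.68 in NASH-fib, without HSC replicate 2 3.36 and 3.29. Within single label dates the difference from HSC was 4.85 and 5.11 for CCl4-fib and 4.59 for NASH-fib on the log2 scale. The gene most alike Has1 over the 9 libraries was Lrrn4, a mesothelial marker, with a Pearson r of log2(value + 1) of 0.977, followed by Tgif1 (0.976) and Gp1bb (0.971). As the 9 libraries fall into 3 groups, r values of this kind also carry the differences between groups. Mesothelial sums in replicates 1, 2 and 3 were 5375, 14106 and 17927 in NASH-fib and 14579, 12053 and 9989 in CCl4-fib, so the lowest Has1 value of NASH-fib came from the library with the lowest sum, while the highest of CCl4-fib did not come from the library with the highest sum. The part of mesothelial cells in the Has1 level was not tested.

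The 250 bases before the start of Has1 are shown because the gene was higher in both models, on the minus strand at chr17:17855189-17855438 of GRCm38.p6 (RefSeq), which is the mm10 assembly. Both strands were searched for the core letters of 5 common promoter elements. These were the TATA box, spelled TATAAA, the GC box that binds factors of the Sp family, spelled GGGCGG, the AP-1 element of Jun and Fos proteins, which is TGA and TCA parted by any 1 base, the element of STAT factors, spelled TTCNNNGAA, and the element of TEAD factors, spelled GGAATG, and matches are in capitals in this and the following promoters. The sequence holds none of these letters, which says nothing of the factors themselves. Of 32851 promoters of that length, 12.4%, 32.7%, 6.75%, 7.02% and 12.6% hold the 5 motifs in the order given. Its GC content was 58.0%, where the median promoter had 52.4%.
Has1: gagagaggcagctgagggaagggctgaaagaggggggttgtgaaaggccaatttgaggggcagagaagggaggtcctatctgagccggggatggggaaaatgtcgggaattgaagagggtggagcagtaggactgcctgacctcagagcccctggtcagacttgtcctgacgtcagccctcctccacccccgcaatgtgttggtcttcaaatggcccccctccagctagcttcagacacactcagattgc

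Has2 (NM_008216, minus strand of chromosome 15, 56665627 to 56694546) encodes the synthase that is needed in heart development and makes very long chains. Its values were 2.34, 0 and 0 in HSC, 15.1, 12.8 and 14.3 in CCl4-fib libraries and 38.1, 8.02 and 28.5 in NASH-fib. HSCs held 2 reads in all, every fibroblast library lay above them, and NASH-fib spread to both sides of CCl4-fib. Such a gap from HSC was seen in 12.7% of all tested genes for NASH-fib and in 27.8% for CCl4-fib. Read for read, Has2 was 27.3 times as high in NASH-fib as in HSC (95% counting interval 7.26 to 230) and 16.7 times as high in CCl4-fib (4.39 to 142), intervals that cover counting error only since amplified reads are not independent molecules. On the fitted scale the log2 fold change was 3.87 (SE 0.77, limma adjusted p = 0.00703) in NASH-fib, or 4.51 without its replicate 2, and 3.33 (SE 0.77, limma adjusted p = 0.00918) in CCl4-fib. Between the models it was 0.54, with an interval from -1.16 to 2.24. Within label dates the differences from HSC were 5.29 for NASH-fib and 4.01 and 3.78 for CCl4-fib. The antisense gene Has2os shares 182 exonic bases with Has2 and, as reads of both strands were counted, the 2 cannot be told apart there, but Has2os had values of at most 7.14. Genes most alike Has2 over the 9 libraries were the complement protease genes C1s1 (r = 0.968) and C1s2 (0.965) and the transcription factor gene Lhx9 (0.968).

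Has3 (NM_008217, plus strand of chromosome 8, 106870242 to 106882902), the synthase of shorter chains, had 10 reads or fewer in every library. Its values were 8.18, 4.37 and 9.56 in HSC, 1.59, 1.70 and 0.95 in CCl4-fib, whereas NASH-fib had 13.6, 0 and 5.90. CCl4-fib lay below HSC in every library, as did 20.9% of all tested genes, and NASH-fib overlapped both. The read ratio of HSC to CCl4-fib was 5.27 (95% counting interval 1.89 to 18.2), from 18 and 5 reads, with no test among replicates since the gene was filtered out. Has3 shares 352 exonic bases with Chtf8 on the opposite strand, which had up to 103 library-scaled reads, so part of these few reads may not belong to it.

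Per kilobase of exon, the scale on which genes can be compared, Has1 led the synthases in all 6 fibroblast libraries. Its mean level was 20.8 ± 13.1 (SD, n = 3) in CCl4-fib and 18.6 ± 6.54 in NASH-fib, Has2 had 3.31 ± 0.28 and 5.86 ± 3.62, and Has3 0.24 ± 0.07 and 1.10 ± 1.15. Has1 held 77.7%, 91.6% and 79.0% of the summed synthase level in CCl4-fib replicates 1, 2 and 3 and 49.6%, 92.3% and 74.2% in NASH-fib. NASH-fib replicate 1 was the library where Has2 came nearest to Has1, with 40.1%. Has2 had more reads than Has1 there, 28 against 17. The lead of Has1 in that library thus rests on division by exonic lengths of 4239 and 2085 bases. In HSCs the 3 synthases together had only 14, 3 and 9 reads, too few for a share.

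**Figure D4:**
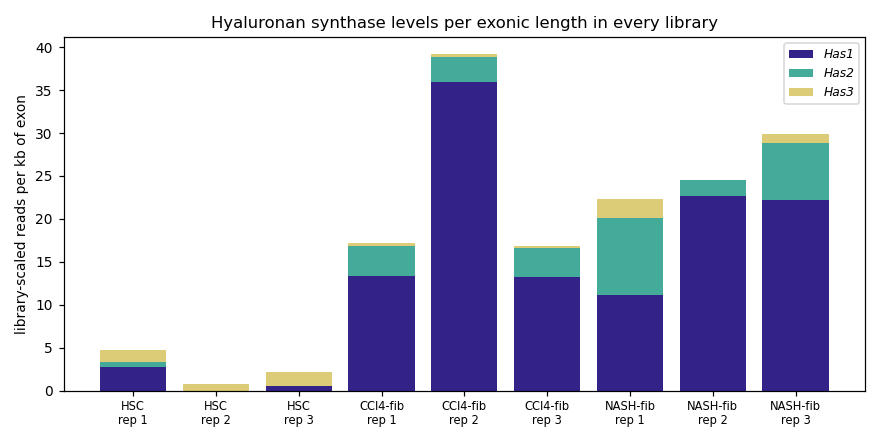
Stacked bars of library-scaled reads per kb of exon (y axis from 0) for Has1, Has2 and Has3 in each of the 9 libraries. Has1 is the largest section in every fibroblast library, from 49.6% to 92.3% of the bar, and HSC bars rest on 14 reads or fewer.

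Unlike Has1 and Has2, neither hyaluronidase was called higher than in HSCs in both models. Hyal2 was called higher in CCl4-fib only. Hyal2 (NM_010489, plus strand of chromosome 9, 107569163 to 107572778), whose product is tethered to the cell surface and cuts long hyaluronan into intermediate fragments, had values of 59.6, 59.7 and 129 in HSC, 247, 325 and 146 in CCl4-fib libraries and 31.3, 28.5 and 21.6 in NASH-fib. All CCl4-fib libraries lay above and all NASH-fib libraries below all HSC libraries, so no groups overlapped. NASH-fib had 0.113 times the mean of CCl4-fib, a log2 fold change of -3.04 (SE 0.47, limma adjusted p = 0.00863), and within single label dates the difference was -2.94 and -2.51. In CCl4-fib the gene was 1.54 above HSC on the log2 scale (SE 0.47, limma adjusted p = 0.0335). That call was lost without HSC replicate 1 (log2 fold change 1.36, adjusted p = 0.109), HSC replicate 2 (1.36, adjusted p = 0.0969), CCl4-fib replicate 1 (1.48, adjusted p = 0.108) or CCl4-fib replicate 2 (1.29, adjusted p = 0.142), with the label date in the fit (1.64, adjusted p = 0.0638) and with a replicate block (1.54, adjusted p = 0.0658), all by limma. NASH-fib against HSC gave -1.49 with an interval from -2.54 to -0.45 and was not called (limma adjusted p = 0.0686). Of all tested genes, 11.6% had every NASH-fib library below every HSC library and 22% had every NASH-fib library below every CCl4-fib library. In 27.8%, every CCl4-fib library lay above every HSC library. Genes most alike Hyal2 were Fbxo21 (r = 0.972), Acap3 (0.964) and Timm22 (0.962).

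Hyal1 (NM_008317, plus strand of chromosome 9, 107576952 to 107580133), which encodes the hyaluronidase of lysosomes, lies a short way downstream of Hyal2. It varied as much inside the groups as between them, with 77.2, 8.74 and 126 in HSC, 98.4, 75.7 and 92.5 in CCl4-fib, whereas NASH-fib had 31.3, 256 and 115. All 3 groups overlapped. The log2 fold change was 1.11 for NASH-fib against HSC (95% interval -1.0 to 3.21), 0.96 for CCl4-fib against HSC (-1.14 to 3.06) and 0.14 between the models (-1.96 to 2.25), none of them called, with limma adjusted p of 0.60, 0.472 and 0.935. These intervals leave room for differences of several fold in either direction. Hyal1 shares 1920 exonic bases with the neighbouring gene Naa80 (Nat6 in the data) and 159 with Hyal3 on its own strand, so its reads are uncertain. Dcp1a (r = 0.979), Apex2 (0.978) and Ifit1bl2 (0.964) were most alike.

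Cd44 (NM_009851, minus strand of chromosome 2, 102811142 to 102901665) encodes the main surface receptor of hyaluronan and had at least 337 reads in every library. Its values were 394, 684 and 570 in HSC, 1016, 2257 and 3082 in CCl4-fib libraries and 881, 961 and 792 in NASH-fib. The 3 groups stood in the order HSC, NASH-fib and CCl4-fib with no overlap, though the lowest CCl4-fib library was close to the highest of NASH-fib. Of all tested genes, 27.8% had every CCl4-fib library above every HSC library and 22% every NASH-fib library below every CCl4-fib library. Against HSC, Cd44 rose in CCl4-fib by 1.84 on the log2 scale (SE 0.42, limma adjusted p = 0.0091), a call that was lost with the label date in the fit (1.47, limma adjusted p = 0.0782), and within dates the difference was 0.57 and 1.98. In NASH-fib the log2 fold change against HSC was 0.71 (95% interval -0.23 to 1.65, limma adjusted p = 0.396), and 12.7% of all tested genes had every NASH-fib library above every HSC library. Between NASH-fib and CCl4-fib it was -1.13 (interval -2.07 to -0.19, limma adjusted p = 0.112), with -0.21 and -1.82 within dates. Leukocytes carry CD44 as well. Macrophage sums were higher in HSC (2578 to 9811) than in CCl4-fib (232 to 443) and NASH-fib (680 to 2164), whereas those of neutrophils (47.8 to 1034 in HSC, 591 to 5997 in NASH-fib) and lymphocytes (21.1 to 51.4 and 49.9 to 220) reached higher in NASH-fib. The fibroblasts were sorted as CD45- cells and the HSCs were not, and the part of leukocytes in the Cd44 level was not tested. All transcripts were counted as 1 entry, so the splice forms of Cd44 and of Vcan were not told apart. Nek6 (r = 0.966) and Fmn1 (0.958) were among the genes most alike Cd44.

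Vcan (NM_001081249, minus strand of chromosome 13, 89655310 to 89742512) was near 0 in HSCs and higher in both models. Its values were 2.34, 14.6 and 13.2 in HSC, 320, 612 and 633 in CCl4-fib, whereas NASH-fib had 186, 130 and 167. The 3 groups did not overlap, and NASH-fib stood between HSC and CCl4-fib. Of all tested genes, 12.7% in NASH-fib and 27.8% in CCl4-fib had every library above every HSC library. In 22%, every NASH-fib library lay below every CCl4-fib library. Vcan rose by 5.79 on the log2 scale in CCl4-fib (SE 0.60, limma adjusted p = 9.43e-05) and by 4.15 in NASH-fib (SE 0.60, limma adjusted p = 0.00105), and within dates the differences were 4.37 and 5.44 for CCl4-fib and 3.59 for NASH-fib. Without HSC replicate 1, the lowest HSC library, the log2 fold changes were 5.07 and 3.43. NASH-fib had 0.309 times the CCl4-fib mean, a log2 fold change of -1.64 (interval -2.96 to -0.32) that was not called (limma adjusted p = 0.104), with -0.78 and -2.10 within dates. It was called with DESeq2 (adjusted p = 0.0285), and with limma at a pseudocount of 5 (0.0484), on the fibroblast libraries alone (0.0372) and without HSC replicate 1 (0.042). Ncam1, a cell adhesion gene of nerve and of some fibroblasts, was most alike (r = 0.982), followed by Tspan5 (0.978) and Flrt2 (0.976).

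The 250 bases before the start of Vcan, on the minus strand at chr13:89742513-89742762 of GRCm38.p6 (RefSeq), are shown for comparison with those of Has1 and Tnfaip6. They hold a GC box at bases -219 to -214 and another on the opposite strand at -10 to -5, counted back from the start, and 62.4% of bases were G or C.
Vcan: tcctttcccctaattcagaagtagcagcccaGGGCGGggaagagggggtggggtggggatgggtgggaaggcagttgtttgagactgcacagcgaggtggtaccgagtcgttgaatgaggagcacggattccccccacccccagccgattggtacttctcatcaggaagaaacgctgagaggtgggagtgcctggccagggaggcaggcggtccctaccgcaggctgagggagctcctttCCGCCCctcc

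Tnfaip6 (NM_009398, plus strand of chromosome 2, 52038113 to 52056681) had the largest log2 fold changes of the 7 tested genes between HSCs and fibroblasts. Its values were 3.51, 5.82 and 0 in HSC, 422, 524 and 569 in CCl4-fib libraries and 387, 488 and 439 in NASH-fib. HSC libraries held 7 reads in all, every fibroblast library held at least 285, and the fibroblast groups overlapped. On the log2 scale the increase was 7.32 (SE 0.63, limma adjusted p = 3.81e-05) in CCl4-fib and 7.12 (SE 0.63, limma adjusted p = 6.09e-05) in NASH-fib, with 5.96 and 9.04, and 5.83, within label dates. The size rests on the few HSC reads, since without HSC replicate 3, the library at 0, it was 6.5 in CCl4-fib and 6.30 in NASH-fib. Between the models the log2 fold change was -0.20, with an interval from -1.59 to 1.19. The genes most alike Tnfaip6 were Bnc2, a zinc finger gene of fibroblasts (r = 0.997), the basement membrane collagen gene Col4a6 (0.995) and Pdpn (0.993), which encodes podoplanin, a surface protein of fibroblasts, mesothelium and lymphatic endothelium.

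The promoter of Tnfaip6 is shown since the gene carried the largest difference, on the plus strand at chr2:52037863-52038112 of GRCm38.p6 (RefSeq). It was the richest of the 3 in matches, with TTCTGAGAA (STAT) at -209 to -201, a GC box on the opposite strand at -171 to -166, TGAGTCA (AP-1) at -142 to -136 and CATTCC (TEAD, opposite strand) at -8 to -3, none of which overlap. Its GC content, 44.4%, was below that of the median promoter. A match is a description of letters and not a site in use. Promoters were found for 6 of the 8 genes, and those of Has2 and Has3 were not analysed here.
Tnfaip6: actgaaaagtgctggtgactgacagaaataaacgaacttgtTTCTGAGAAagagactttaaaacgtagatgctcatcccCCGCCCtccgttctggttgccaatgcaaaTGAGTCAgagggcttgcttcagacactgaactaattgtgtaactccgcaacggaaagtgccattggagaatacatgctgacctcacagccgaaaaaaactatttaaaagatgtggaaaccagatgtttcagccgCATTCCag

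Per kilobase of exon, the order of the 8 genes changed between the groups. The place of Hyal1 is uncertain, since it shares 1920 exonic bases with Naa80, and the splice forms of Cd44 and Vcan were not told apart. In HSCs the highest means were those of Cd44 (97.6 ± 26.0, SD, n = 3), Hyal2 (44.9 ± 21.8) and Hyal1 (32.5 ± 27.1), and the last 2 overlapped. The other 5 genes had means of 1.95 or less. In CCl4-fib, Cd44 (376 ± 185) and Tnfaip6 (317 ± 47.1) came first and lay within each other's spread, followed by Hyal2 (130 ± 48.7), Vcan (42.0 ± 14.1) and Hyal1 (41.0 ± 5.44), the last pair also within its spread. In NASH-fib, Tnfaip6 (275 ± 31.6) stood above Cd44 (156 ± 15.0), and Hyal1 (61.8 ± 52.3), Has1 (18.6 ± 6.54), Hyal2 (14.7 ± 2.70) and Vcan (13.0 ± 2.30) followed, with spreads that met.

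Of 65 other genes of the pathway, listed by role, 52 were tested. In NASH-fib 8 were higher and 6 lower than in HSCs, where 12.5% of all tested genes were called, and in CCl4-fib 15 were higher and 13 lower, beside 27.8% of all. Between NASH-fib and CCl4-fib, 7 were higher and 7 lower in NASH-fib, beside 10.6% of all, a count that leaving out NASH-fib replicate 3 or CCl4-fib replicate 2 reduced from 14 to 2 called genes, while leaving out CCl4-fib replicate 1 or 3 left 7 and HSC replicate 1 left 8. Calls over all tested genes, 1451 in this comparison, went down in the same fits, to 269 when NASH-fib replicate 3 was left out, 212 for CCl4-fib replicate 2, 532 and 695 for CCl4-fib replicates 1 and 3 and 1132 for HSC replicate 1. The median log2 fold changes of the list were 0.02, 0.33 and -0.41, beside -0.02, 0.18 and -0.11 for all tested genes.

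Among the enzymes that supply UDP-sugars, Gfpt2, which starts the synthesis of the amino sugar precursor, had the largest increase. Its values were 90.0, 24.8 and 62.2 in HSC, 1651, 2142 and 2284 in CCl4-fib, whereas NASH-fib had 260, 827 and 931. In CCl4-fib it rose by 5.25 on the log2 scale (SE 0.57, limma adjusted p = 0.000123). Of the 7 genes of this role, 2 were higher in CCl4-fib and 1 in NASH-fib than in HSCs, beside 16.2% and 8.23% of all. Among other enzymes that break hyaluronan down, Cemip, which encodes a secreted depolymerase, was at 0 in all HSC libraries, with 1.36, 10.7 and 6.88 in NASH-fib and 0, 5.10 and 7.63 in CCl4-fib. CCl4-fib thus met HSC at 0 and NASH-fib replicate 1 held 1 read. The group means were at least 1.65-fold and 1.11-fold higher than 3 reads per HSC library, and Cemip was filtered out of the test.

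Receptors split in direction. The uptake receptor gene Stab2, a marker of sinusoidal endothelium, had 805, 507 and 1368 in HSC, 3.97, 21.3 and 21.0 in CCl4-fib libraries and 125, 34.7 and 307 in NASH-fib. It was lower in CCl4-fib (log2 fold change -5.94, limma adjusted p = 0.000527) and NASH-fib (-2.89, limma adjusted p = 0.0437) than in HSCs, and the related Stab1 was lower in NASH-fib too (-3.02, limma adjusted p = 0.00214). Lyve1, the hyaluronan receptor of lymphatic and sinusoidal endothelium, was lower in CCl4-fib than in HSCs (-5.48, limma adjusted p = 0.000491) and higher in NASH-fib than in CCl4-fib (3.83, limma adjusted p = 0.0155), and Stab2 was likewise higher in NASH-fib than in CCl4-fib (3.05, limma adjusted p = 0.0411). Endothelial sums stood in the same order, 8385 to 22537 in HSC, 1278 to 4910 in NASH-fib and 272 to 325 in CCl4-fib, and their part in these differences was not tested. Susd5, which encodes a protein with a hyaluronan-binding link domain, had no read in HSCs, and fibroblast libraries held 18.1 to 93.4. It was at least 21.8-fold higher in NASH-fib and 10.5-fold higher in CCl4-fib than 3 reads per HSC library (limma adjusted p = 8.64e-05 in NASH-fib). Hmmr, a hyaluronan receptor gene that also serves the mitotic spindle, was higher in CCl4-fib than in HSCs (2.79, limma adjusted p = 0.0324) and had a log2 fold change of 2.31 in NASH-fib that was not called (limma adjusted p = 0.117).

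Heavy chain genes of the inter-alpha-trypsin inhibitor family followed 2 patterns. Itih5 had 9.35, 4.37 and 4.78 in HSC, 1463, 1789 and 2059 in CCl4-fib, whereas NASH-fib had 447, 664 and 1033. It rose by 8.00 on the log2 scale in CCl4-fib (SE 0.42, limma adjusted p = 5.48e-06) and by 6.62 in NASH-fib (SE 0.42, limma adjusted p = 1.38e-05). Itih1, Itih2 and Itih3, genes of hepatocytes, were higher in NASH-fib than in CCl4-fib. Itih3 had 75.4, 11.1 and 26.7 in CCl4-fib libraries and 237, 178 and 375 in NASH-fib (log2 fold change 3.10, limma adjusted p = 0.015), Itih2 gave 3.15 (limma adjusted p = 0.0171), and Itih1, with 2 reads in all of CCl4-fib, had a read ratio of 44.8 (95% counting interval 12 to 377). In CCl4-fib, Itih3 was lower than in HSC by a log2 fold change of -4.7 (limma adjusted p = 0.000324). Hepatocyte sums were 1525 to 2011 in CCl4-fib, 5363 to 23760 in NASH-fib and 18457 to 32820 in HSC, and their part in this was not tested.

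Most genes of proteins that bind versican were higher in the fibroblasts, as Vcan was. Of 4 tested, 4 were higher in CCl4-fib and 3 in NASH-fib than in HSCs, beside 16.2% and 8.23% of all tested genes. The fifth, the tenascin gene Tnr, was filtered out of the test and went the other way, with 26.9, 24.8 and 8.37 in HSC and 0 in all 6 fibroblast libraries, so that HSC was at least 6.19-fold higher than 3 reads per NASH-fib library and at least 7.70-fold higher than 3 reads per CCl4-fib library. It lies outside the rule for named genes and was chosen after its values were seen. Fbln2, a fibulin of elastic and provisional matrix, had 47.9, 30.6 and 23.9 in HSC, 4019, 3521 and 2999 in CCl4-fib, whereas NASH-fib had 571, 734 and 715, and Fbln1 14, 11.7 and 16.7, then 1091, 811 and 642, then 386, 1023 and 584. Both rose against HSC, Fbln2 by 6.69 and Fbln1 by 5.79 on the log2 scale in CCl4-fib (limma adjusted p = 5.48e-06 and 1.82e-05) and by 4.31 and 5.36 in NASH-fib (3.90e-05 and 3.74e-05). Fbln2 was lower in NASH-fib than in CCl4-fib by -2.38 (SE 0.34, limma adjusted p = 0.00779), and so was the tenascin gene Tnc (-2.32, limma adjusted p = 0.0171).

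Proteases that cut versican showed no common direction. Of 5 tested, 2 were higher and 1 lower in CCl4-fib than in HSCs, beside 16.2% and 11.7% of all tested genes. In NASH-fib, 0 of the 5 were called against HSCs, where 12.5% of all were. Against CCl4-fib, 2 were lower in NASH-fib, beside 5.66% of all. Adamts1 had 2392, 3052 and 1530 in HSC and 591, 539 and 723 in CCl4-fib, a decrease by 1.87 on the log2 scale (limma adjusted p = 0.00431), and 1735, 1436 and 882 in NASH-fib, which was not called (limma adjusted p = 0.259). Adamts5 had log2 fold changes of 0.41 in CCl4-fib (interval -0.37 to 1.19) and -0.03 in NASH-fib (-0.81 to 0.75) against HSC. Adamts4 was lower in NASH-fib than in CCl4-fib (-2.34, limma adjusted p = 0.0353). Of 17 tested genes for chondroitin sulfate chains, 2 were higher and 3 lower in CCl4-fib than in HSCs, beside 16.2% and 11.7% of all. In NASH-fib 1 was higher and 3 lower, beside 8.23% and 4.3% of all. The sulfotransferase gene Chst15 fell by 3.00 in NASH-fib (limma adjusted p = 0.0016) and the chain polymerase gene Chsy1 by 2.11 (limma adjusted p = 0.0489), and Chst12, a sulfotransferase of chondroitin, was lower in NASH-fib than in CCl4-fib (-2.98, limma adjusted p = 0.0134). None of the 7 link proteins and other lecticans passed the filter, and Hapln1, the link protein that fastens lecticans to hyaluronan, had no read in any library. Adamts4, Stab1, Stab2, Tnc, Tnr, Chsy1 and Chst15 overlap a gene on the opposite strand, and reads of both strands were counted.

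**Figure D5:**
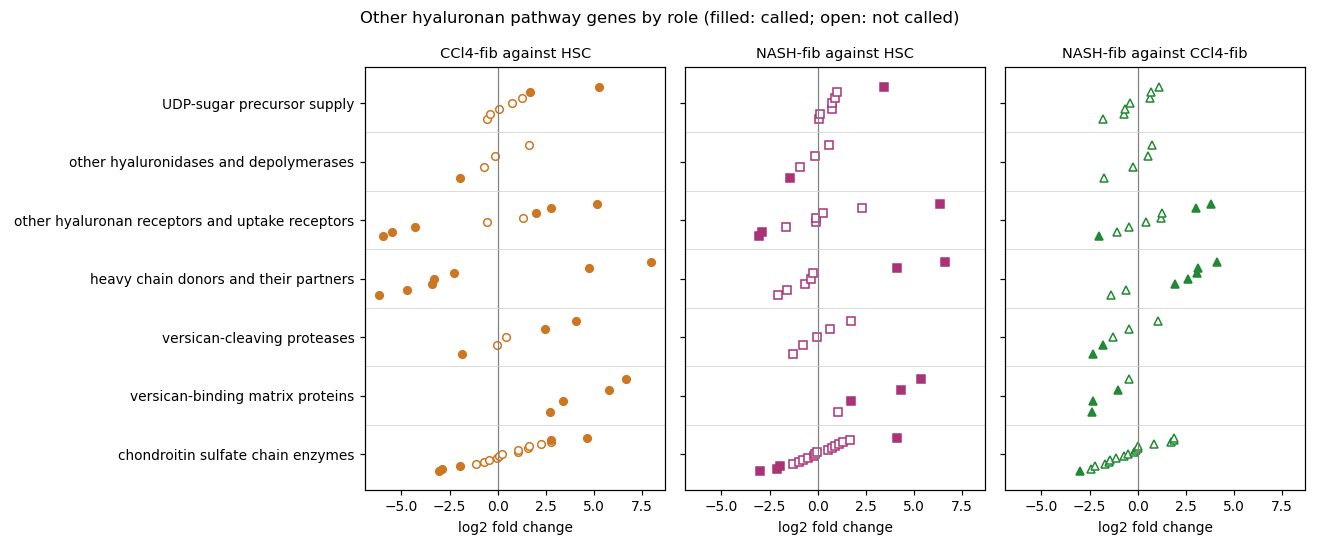
Log2 fold changes (x axis) of the 52 tested pathway genes, grouped by role (y axis), in CCl4-fib against HSC, NASH-fib against HSC and NASH-fib against CCl4-fib, filled where called. All 4 versican-binding matrix genes lie to the right of 0 in the comparisons with HSC. Heavy chain donors and their partners, a role that includes Ambp and Ptx3, are called in opposite directions in CCl4-fib. There, 2 are higher and 5 lower than in HSC, beside 16.2% and 11.7% of all tested genes.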

How the data were processed

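The RNA sequencing data covered HSCs, CCl4-fib and NASH-fib, 3 libraries each. The authors aligned SMARTer-amplified single-end reads to mm10 with STAR and counted them with HOMER (versions not given in the sources used here). Per the file header, reads were counted on exons, from either strand. No more than 3 reads were kept at a position, and the transcripts of a gene were joined into 1 entry. The values deposited by the authors are a signal, the count times a library factor. The header names 10 libraries, of which the tenth is not among the columns, and 0 value columns were left unused. The reads were recovered by division by what 1 read is worth, which came out whole (tolerance 0.01) for 100% of the values. Because the values are not raw counts, limma 3.58.1 in R 4.3.3 (lmFit, eBayes with trend) was fitted to log2(value + 1) over all 9 libraries, for genes kept by filterByExpr of edgeR (minimum count 10, on the recovered reads). Alternatives were edgeR 4.0.16 quasi-likelihood and DESeq2 1.42.0 tests on those reads, TMM and median-of-ratios scaling, pseudocounts of 0.5 and 5, no filter, the compared groups alone, the replicate number or label date as a term, and each library left out. The fit was tested on simulated data in which only genes with higher mean values were changed, and only in NASH-fib. It therefore did not cover genes as low as Has1 and Has2. No library was a copy of another (chi-square per gene between replicates of 18.6 or more). Nothing states that pools of a group shared no mice, so p-values measure only the spread between libraries, which may be partly technical.

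Members, pathway and marker lists were chosen with earlier results of these data known, and no list was tested as a set. Named were the 8 genes, in each comparison the 4 pathway genes with the largest called increase and decrease, Cemip, Hmmr, Lyve1, Stab2, Hapln1, Adamts1 and Adamts5 in any case, the 3 genes most alike each member by Pearson r of log2(value + 1) over 9 libraries, and Mc4r. Of the genes this rule selects, 1 was left out of the text. Promoters came from RefSeq (GRCm38.p6), of which the 250 bases before the start were used.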

Additional observations from a re-analysis of the deposited data

Results flagged for a closer look

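Hyal2 stood out because the 2 models lay on opposite sides of HSCs, with every CCl4-fib library above and every NASH-fib library below every HSC library. Of all tested genes, 27.8% had every CCl4-fib library above, and 11.6% every NASH-fib library below, every HSC library. The test of the difference between the models themselves gave a log2 fold change of -3.04 for NASH-fib against CCl4-fib (limma adjusted p = 0.00863). Against HSC, CCl4-fib was called higher and NASH-fib was not called.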

How the results depend on the processing

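Across 19 other settings, the higher levels of Tnfaip6, Vcan and Has1 in both comparisons with HSC, of Has2 in CCl4-fib and the lower level of Hyal2 in NASH-fib than in CCl4-fib (-3.35 to -2.63, adjusted p 8.92e-07 to 0.0461) held their call, as did Has2 in NASH-fib in the 18 that gave a value, since it failed the filter when only the groups compared were kept. No called direction reversed. Fold changes of low genes moved with the setting, that of Has1 in NASH-fib from 2.60 to 5.06. Hyal2 in CCl4-fib lost its call in 6 settings and Cd44 in CCl4-fib in 1, while Hyal2 in NASH-fib against HSC gained one with DESeq2 (adjusted p = 0.0248). Called members between the models numbered 2 in place of 1 with DESeq2, a pseudocount of 5 or only the groups compared, and 1 to 2 with libraries left out. Called pathway genes in NASH-fib against HSC numbered 8 in place of 14 with the label date or only the groups compared, where calls over all genes numbered 668 and 1178 in place of 1711. Between the models they numbered 22 with DESeq2 and 8 with the label date in place of 14 (over all genes 2679 and 593 in place of 1451), and 2 to 17 with libraries left out. The causes were not tested. Deviations of same-numbered libraries correlated over 0.1 in 1 of 9 pairs, and 3 of 9 libraries matched their own number best. With 3 libraries per group such correlations cannot decide whether the replicate numbers pair the libraries. With the replicate block, called members numbered 4, 5 and 1 and pathway genes 12, 28 and 10 in NASH-fib against HSC, CCl4-fib against HSC and NASH-fib against CCl4-fib. Depth limits the HSC levels of Has3, Has1, Has2 and Tnfaip6, which rest on 18, 6, 2 and 7 reads.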
